A study of Mus musculus with 2 samples.

Results

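The type 17 γδ T cell genes described here are Tmem176a, Tmem176b, Il17a, Il23r, Blk, Trdc, Tcrg-C1 and Lmo4, 8 of the 31053 genes in the deposited matrices, each found by its symbol. They were put together because they led a small unnamed cluster of CD4+ cells in an earlier pass over the same 2 libraries, where more of those cells came from the butyrate library. Their levels and their difference between libraries are therefore a description, not a test. Mediastinal lymph nodes (MedLNs), which drain the lung and airways, had been taken from wild-type C57/B6J mice with ovalbumin (OVA)-induced asthma, either given butyrate (library labelled C4) or not (library labelled OVA). Butyrate is a short-chain fatty acid made by gut bacteria. All mice in both groups carried the OVA-induced disease, 4 mice were pooled per group, and each group was captured once as a 10x Genomics 3′ single-cell library, so no difference between groups has a replicate check and no p-value was computed. Every interval below is an exact 95% interval that covers counting error only.

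γδ T cells carry a T cell receptor made of a γ and a δ chain in place of the α and β chains, and most lack the CD4 and CD8 coreceptors. In the mouse, one branch of them is programmed in the thymus to make IL-17, and IL-23, sensed through the receptor that Il23r encodes, drives that cytokine. Another branch makes interferon-γ and carries cytotoxic genes. In lymph nodes and barrier tissues the IL-17 branch persists as long-lived, tissue-homing cells.

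The 8 genes fall into 3 sets by role. Trdc (chromosome 14, 54142851 to 54148868, plus strand of GRCm38) and Tcrg-C1 (chromosome 13, 19214103 to 19217024, plus strand) encode constant regions of the δ and γ chains. Il17a (chromosome 1, 20730905 to 20734496, plus strand) encodes the cytokine and Il23r (chromosome 6, 67422932 to 67491855, minus strand) the specific chain of its inducing receptor. The other 4 genes encode neither a receptor chain nor a cytokine. Tmem176a and Tmem176b encode related membrane proteins found in IL-17-producing lymphocytes and in dendritic cells. Blk (chromosome 14, 63372836 to 63417037, minus strand) encodes a Src-family kinase of B cells and of type 17 γδ T cells, and Lmo4 (chromosome 3, 144188530 to 144205220, minus strand) a LIM-domain adaptor of transcription complexes.

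Tmem176a (chromosome 6, 48840919 to 48847071, plus strand) and Tmem176b (chromosome 6, 48833818 to 48841496, minus strand) are neighbours in opposite directions whose 5′ ends overlap by 578 bases. The window around 1 Tmem176a start is shown because it also holds a Tmem176b start, and the windows of Il17a and Il23r because they hold the letters AGGTCA, a motif that many nuclear receptors bind. RefSeq (GRCm38.p6) gave such windows, from 250 bases before to 50 bases after a start, for 5 of the 8 genes: Tmem176a, Tmem176b, Il17a, Il23r and Lmo4. Capitals mark AGGTCA on either strand (TGACCT when read on the other), and each window is written 5′ to 3′ along its gene.
Tmem176a, chr6:48841233-48841532, plus strand: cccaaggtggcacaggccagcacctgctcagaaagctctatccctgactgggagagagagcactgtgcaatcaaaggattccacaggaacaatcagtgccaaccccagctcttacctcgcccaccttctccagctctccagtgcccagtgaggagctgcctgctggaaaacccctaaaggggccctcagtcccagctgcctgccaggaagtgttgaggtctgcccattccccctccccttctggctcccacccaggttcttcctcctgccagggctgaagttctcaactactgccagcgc
Il17a, chr1:20730655-20730954, plus strand: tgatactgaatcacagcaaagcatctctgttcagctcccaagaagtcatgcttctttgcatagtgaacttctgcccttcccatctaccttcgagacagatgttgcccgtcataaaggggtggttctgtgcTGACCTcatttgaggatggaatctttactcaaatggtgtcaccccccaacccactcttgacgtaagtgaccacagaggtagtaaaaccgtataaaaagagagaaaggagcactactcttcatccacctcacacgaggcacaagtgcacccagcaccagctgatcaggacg
Il23r, chr6:67491806-67492105, minus strand: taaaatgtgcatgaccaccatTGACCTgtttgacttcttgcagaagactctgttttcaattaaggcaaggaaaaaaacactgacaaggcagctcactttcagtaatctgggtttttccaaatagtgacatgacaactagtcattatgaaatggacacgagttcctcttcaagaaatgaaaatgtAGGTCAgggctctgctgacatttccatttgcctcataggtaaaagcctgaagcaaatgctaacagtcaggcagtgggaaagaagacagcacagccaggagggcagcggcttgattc
The motif stood once in the Il17a window and at 2 places in that of Il23r. None of the windows of Tmem176a (2 starts), Tmem176b (3 starts) or Lmo4 (3 starts) held it. Of 32851 RefSeq windows of the same length, 5340 (16.3%) held it, so a match is a description of letters and not of binding.

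The files held 9681 cells without and 8932 with butyrate, at 59176459 and 58381292 unique molecular identifiers (UMIs), of which 8745 and 7967 cells were kept, at a median of 5074 and 5649 UMIs per cell. Cells with a Cd3e UMI were called CD4+ (1059 and 944, without and with butyrate), CD8+ (1621 and 1666) or, with neither Cd4 nor Cd8a, CD4-CD8- (1221 and 979). Those with both Cd4 and Cd8a (44 and 30) were counted among all Cd3e+ cells but are not given as a class. Cells without any Cd3 or αβ receptor constant gene were non-T cells, split into B cells (3381 and 3085) and others (62 and 43), and 1357 and 1220 cells that fitted neither rule were left unresolved. A CD4-CD8- cell is one in which neither coreceptor was seen, and most were αβ T cells by their transcripts: Trac, the α chain constant gene, had a UMI in 85.8% and 83.7% of those without Trdc, Tcrg-C1 or either Tmem176 gene. Cells of this class held more UMIs in the butyrate library (median 5565 against 4916 UMIs). Shares were therefore also taken after every cell had been thinned to 2000 UMIs. The libraries shared 25 barcodes, and no such cell was a Cd3e+ cell with 3 or more of the 8 genes.

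The receptor genes marked CD4-CD8- cells. Trdc had a UMI in 101 of 1221 CD4-CD8- cells without butyrate (8.27%, 6.79 to 9.96) and in 81 of 979 with butyrate (8.27%, 6.62 to 10.2). In CD8+ cells the share was 2.90% and 2.52%, in CD4+ cells 1.89% and 2.01%, and in B cells, which should lack it, 0.148% and 0.0972%. The order CD4-CD8-, CD8+ and CD4+ was the same in both libraries, although the intervals of the last 2 overlapped. The level followed the same order: in CPM (UMIs of the gene scaled to the summed UMIs of the class), Trdc stood at 104 (96.5 to 112) and 119 (110 to 128) in CD4-CD8- cells and at 15.0 and 9.84 in CD8+ cells. Its share in CD4-CD8- cells did not differ detectably between libraries, with a log2 ratio of 0.00 (-0.44 to 0.44).

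Tcrg-C1 was seen in 50 CD4-CD8- cells without butyrate (4.10%, 3.05 to 5.36) and in 68 with butyrate (6.95%, 5.43 to 8.72). Its log2 ratio of shares, 0.76 (0.21 to 1.32), lay above 0, but its interval reached below 0 at no more than 5% mitochondrial UMIs (0.55, -0.04 to 1.14) and with T cells called by any Cd3 gene (0.51, -0.0019 to 1.03). In B cells 1 cell of each library had a UMI, and in CD4+ and CD8+ cells the share was between 0.318% and 0.802%. Tcrg-C1 is nearly identical in sequence to other γ constant genes, and how reads shared between them were counted is not given in the sources used here, so its level is uncertain.

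**Figure D1:**
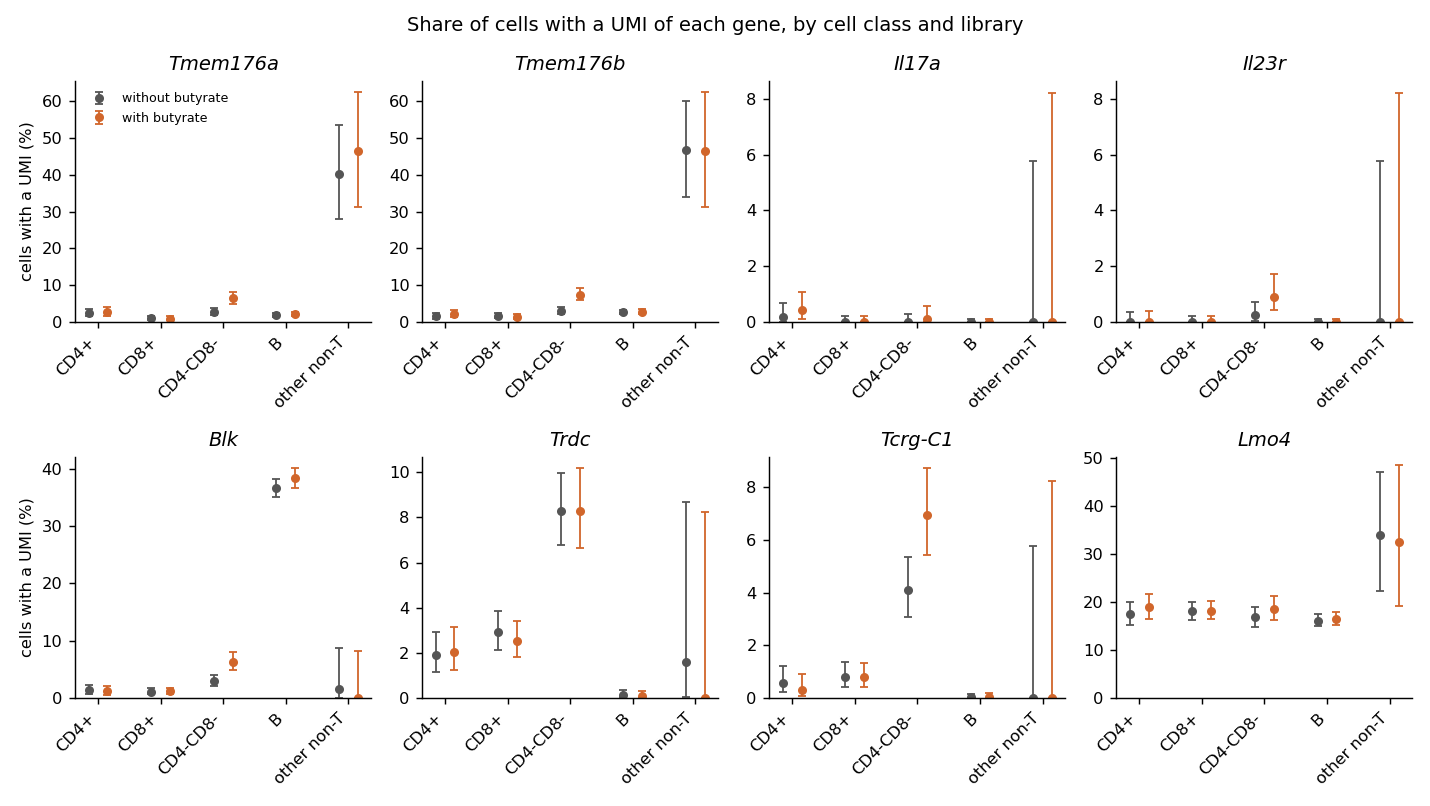
Share of cells with a UMI of each gene (y axis, percent, a scale of its own in each panel) in 5 cell classes (x axis) without butyrate (grey) and with butyrate (orange); points are shares and bars exact 95% binomial intervals. Trdc, Tcrg-C1 and Il23r were most frequent in CD4-CD8- cells apart from the wide intervals of the few other non-T cells, Blk in B cells, and both Tmem176 genes in other non-T cells.

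Il17a hardly appeared. It had a UMI in 3 cells without butyrate, 42 UMIs in all, of which 1 CD4+ cell held 36 (85.7%). With butyrate it had a UMI in 6 cells, 12 UMIs in all, of which the highest cell held 5. All these cells also had a Trac UMI. CD4+ cells accounted for 2 of the 3 and 4 of the 6. Only 1 of the cells, an unresolved one with butyrate, had Trdc and Tcrg-C1, at 2 UMIs each, together with 2 UMIs of Cd163l1, a scavenger receptor gene of γδ T cells. None of the 1221 CD4-CD8- cells without butyrate had an Il17a UMI, and with butyrate 1 of 979 had one. For the former, 3 counts of the class would be 0.246% and the exact upper limit was 0.302%, both of which limit cells with a UMI and not cells expressing the gene. On this gene the data go against the label of the set. Without thinning, its few cells were mostly CD4+ cells with an α chain transcript. After thinning the order of the libraries reversed. Il17a then had a UMI in 3 cells without butyrate, 2 of them CD4+. With butyrate it was left in 1 cell, the unresolved one, and in 0 of 940 CD4+ cells. The 4 CD4+ cells with butyrate had held 15879 to 75016 UMIs each, above their class median of 6142.5. The 2 without butyrate had held 4352 and 4972, below their class median of 5302.

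Il23r was as sparse but lay elsewhere. It had a UMI in 4 cells without and in 10 with butyrate, of which 3 and 9 were CD4-CD8- cells and 1 of each library was unresolved. No CD4+, CD8+ or B cell had one. All 4 and all 10 of these cells had UMIs of both Tmem176a and Tmem176b, and each held 3 to 7 of the 8 genes. A receptor gene, Trdc or Tcrg-C1, was seen in 1 of the 4 and 6 of the 10. Among them, the cell of each library with the most Tmem176a UMIs (32 without and 38 with butyrate) had neither receptor gene and at most 2 Trac UMIs. The log2 ratio of shares in CD4-CD8- cells was 1.90 (-0.10 to 4.43), an interval that held 0. On summed CPM the log2 difference was 2.04 (0.12 to 4.52), from only 3 UMIs without and 11 with butyrate.

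Tmem176a was seen in 33 CD4-CD8- cells without butyrate (2.70%, 1.87 to 3.77) and in 63 with butyrate (6.44%, 4.98 to 8.16). Tmem176b was seen in 37 (3.03%, 2.14 to 4.15) and 73 (7.46%, 5.89 to 9.28). The log2 ratios of shares were 1.25 (0.62 to 1.91) for Tmem176a and 1.30 (0.71 to 1.91) for Tmem176b, and at 2000 UMIs per cell 1.26 (0.52 to 2.04) and 1.51 (0.75 to 2.30). Over all genes seen in at least 20 cells of the class, the median log2 ratio was 0.16 with all UMIs and 0.03 after thinning. In CD4+, CD8+, B and unresolved cells the interval of the log2 ratio of shares held 0 for both genes. Unresolved cells were nevertheless higher with butyrate on summed CPM. Their log2 difference was 0.75 (0.51 to 0.99) for Tmem176a and 0.51 (0.29 to 0.74) for Tmem176b. On summed CPM, the log2 difference in CD8+ cells was -0.70 (-1.39 to -0.02) for Tmem176a and -0.77 (-1.36 to -0.19) for Tmem176b, and in B cells it was -0.50 (-0.75 to -0.25) for Tmem176b, each opposite in direction to CD4-CD8- cells. Single cells weighed on these sums. Without butyrate, the highest CD8+ cell held 23 of 46 Tmem176a UMIs, and the highest for Tmem176b held 29 of 63. The highest B cell held 59 of 341 Tmem176b UMIs. The CPM intervals treat UMIs of 1 cell as independent and do not cover this. Whether the directions hold without these cells was not tested.

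The highest shares of both Tmem176 genes were outside the T cells. Among non-T cells that were not B cells, Tmem176a was seen in 40.3% (28.1 to 53.6) without and 46.5% (31.2 to 62.3) with butyrate, and Tmem176b in 46.8% and 46.5%. Of those with a myeloid or dendritic marker UMI, 51.9% and 55.8% had either gene. B cells held Tmem176a at 1.95% and 2.30% and Tmem176b at 2.75% and 2.82%. The intervals in CD4-CD8- cells overlapped those of B cells without butyrate and lay above them with butyrate.

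Blk was mainly a B cell gene in these nodes, with a UMI in 36.7% (35.0 to 38.3) and 38.4% (36.7 to 40.1) of B cells. In CD4-CD8- cells it was seen in 35 cells without butyrate (2.87%, 2.0 to 3.96) and in 62 with butyrate (6.33%, 4.89 to 8.05), with a log2 ratio of shares of 1.14 (0.52 to 1.78). Most of these cells also had a B cell marker: only 8 of the 35 and 10 of the 62 had none of the B cell markers. The 4 B cell markers themselves were higher with butyrate in CD4-CD8- cells, with a median log2 CPM difference of 0.43. With every cell left out that had a B cell, myeloid or dendritic marker UMI, the log2 ratio for Blk was 0.69 (-0.80 to 2.24), an interval that held 0. Without doublet removal it was 0.31 (-0.16 to 0.78).

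Blk was also set against Cd79a, a B cell receptor gene. In B cells there were 0.0357 and 0.0376 Blk UMIs per Cd79a UMI. CD4-CD8- cells as a whole held 0.955 and 1.67 times the Blk that their Cd79a would bring at that proportion. This was not particular to them: CD8+ cells held 1.03 and 1.68 times, and CD4+ cells 2.36 and 1.65 times.

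Lmo4 had UMIs in every class. It was seen in 16.8% (14.7 to 19.0) and 18.6% (16.2 to 21.2) of CD4-CD8- cells, 17.5% and 19.0% of CD4+ cells, 18.0% and 18.2% of CD8+ cells, and 16.1% and 16.5% of B cells. In the few other non-T cells it was at 33.9% (22.3 to 47.0) and 32.6% (19.1 to 48.5). Its share in CD4-CD8- cells gave a log2 ratio of 0.15 (-0.15 to 0.44), and of 0.45 (0.01 to 0.88) after thinning. Its CPM in that class was 60.6 without and 93.9 with butyrate. In CD8+ cells it was 28.9 and 26.7 CPM, and in B cells 39.5 and 38.3 CPM. CD4+ cells were also higher with butyrate, at 38.8 and 50.8 CPM, a log2 difference of 0.39 (0.16 to 0.62).

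Summed CPM was compared as well. With 10 CPM added to both sides and at least 50 UMIs required over both libraries, 6 of the 8 genes entered, all but Il17a and Il23r, and 0 of the 6 passed 2-fold in CD4-CD8- cells, where 0.0113% of all 8818 genes were past 2-fold higher and 0.159% lower with butyrate. The log2 differences were 0.89 for Tmem176a, 0.85 for Tmem176b, 0.71 for Blk, 0.56 for Lmo4, 0.51 for Tcrg-C1 and 0.18 for Trdc. Their median was 0.63 against 0.03 over all genes, and the added 10 CPM understates the difference of low genes. Without it, the log2 CPM difference in CD4-CD8- cells was 1.19 (0.89 to 1.51) for Tmem176a, 1.11 (0.82 to 1.40) for Tmem176b and 1.32 (0.82 to 1.85) for Blk. It was 0.76 for Tcrg-C1, 0.63 for Lmo4 and 0.19 for Trdc. The share of all genes past 2-fold without the added 10 CPM was not computed, so these values have no background beside them. In CD4+ cells Il17a went the other way on this measure, at -2.18 (-3.41 to -1.12), with 87.8% of its 41 UMIs without butyrate in 1 cell. With the 10 CPM added, 5 of the 8 genes entered in CD4+ cells, 4 in CD8+ cells and 4 in B cells, again with 0 past 2-fold. There, genes past 2-fold higher and lower made up 0.11% and 0.198% of all genes in CD4+ cells, 0.0209% and 0.0835% in CD8+ cells, and 0.00989% and 0.089% in B cells. Of the 21 other type 17 genes 15 entered, with 0 past 2-fold and a median of 0.37. Of 11 type 1 γδ genes, those of the interferon-γ branch, 10 entered, with 0 past 2-fold and a median of 0.02.

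Some cells held several of the 8 genes. At least 3 of them were seen in 27 of 1221 CD4-CD8- cells without butyrate (2.21%, 1.46 to 3.20) and in 56 of 979 with butyrate (5.72%, 4.35 to 7.36), and the log2 ratio of these shares was 1.37 (0.68 to 2.09). At 2000 UMIs per cell, Trdc had a UMI in 12 of these 27 and 12 of these 56 cells, and Tcrg-C1 in 12 and 18. Most of these cells thus had no Trdc UMI at that depth. In CD4+ cells 6 and 10 cells reached 3 genes, and in CD8+ cells 6 and 7. Over all Cd3e+ cells, 3 or more genes were seen in 41 cells without and 73 cells with butyrate. The log2 ratio of these shares was 0.96 (0.39 to 1.55), and at 2000 UMIs per cell it was 1.74 (0.85 to 2.73). At least 4 genes were seen in 14 and 33 CD4-CD8- cells, at least 5 in 6 and 14, and at least 6 in 3 and 7. No cell of the class held all 8. Only 1 cell of the class, with butyrate, had an Il17a UMI, so co-detection with Il17a could hardly be seen there. That cell had no UMI of Il23r, Blk, Trdc or Tcrg-C1. In B cells 22 and 21 cells reached 3 genes, and the interval of their log2 ratio, 0.07 (-0.87 to 1.0), held 0.

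**Figure D2:**
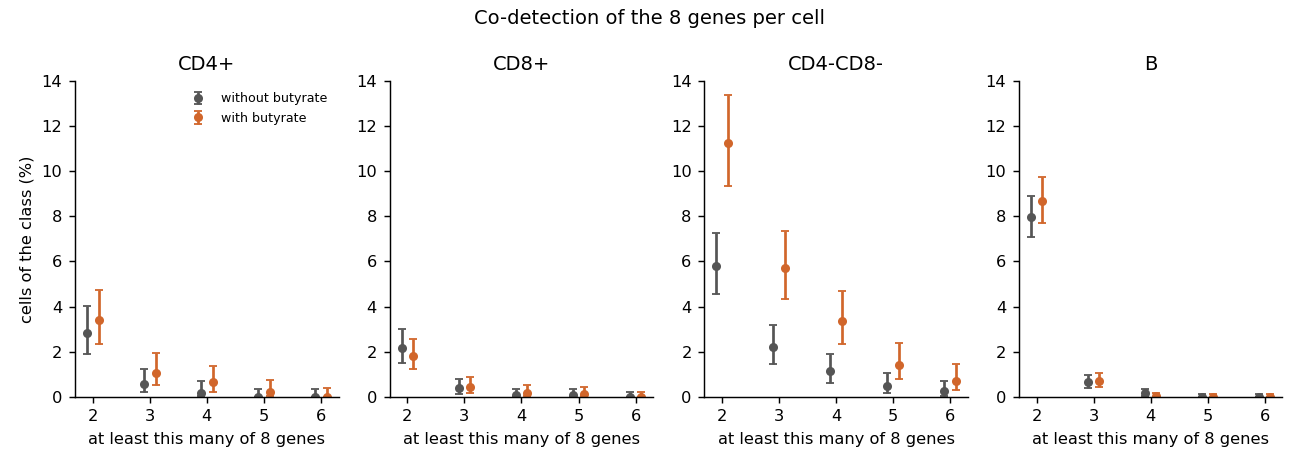
Percent of cells (y axis) with at least 2, 3, 4, 5 or 6 of the 8 genes (x axis) in CD4+, CD8+, CD4-CD8- and B cells, without (grey) and with butyrate (orange); bars are exact 95% binomial intervals. In CD4-CD8- cells 2.21% without and 5.72% with butyrate reached 3 genes.

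Pairs of genes were compared with the number of cells that independent detection would give, in CD4-CD8- cells at 2000 UMIs. Tmem176a and Tmem176b shared 11 cells without butyrate (0.437 expected) and 36 with butyrate (2.38 expected). Tmem176a and Lmo4 shared 12 (1.77 expected) and 35 (4.61 expected). Trdc and Tcrg-C1 shared 19 (1.92 expected) and 25 (2.89 expected), and Trdc and Tmem176a shared 4 (1.65 expected) and 8 (3.33 expected). Trdc and Lmo4 were the exception without butyrate, with 4 shared cells (6.11 expected), and exceeded the expected number with butyrate, at 9 (7.01 expected). Of 28 pairs, those with at least 1 expected cell numbered 7 without and 15 with butyrate, and 6 and 15 of these exceeded it. The 2 receptor genes differed in their overlap with Tmem176a: Tcrg-C1 and Tmem176a shared 7 cells (0.556 expected) and 14 (1.90 expected). Observed over expected cells was thus 2.43 and 2.40 for Trdc with Tmem176a but 12.6 and 7.37 for Tcrg-C1 with Tmem176a. It was 9.88 and 8.64 for Trdc with Tcrg-C1, and 25.2 and 15.2 between the Tmem176 genes. The excess between the Tmem176 genes was not particular to CD4-CD8- cells. In B cells they shared 14 cells (0.419 expected) and 9 (0.474 expected), or 33.4 and 19.0 times the expected number.

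Most cells with a γδ receptor gene lacked Tmem176. Among CD4-CD8- cells, Trdc or Tcrg-C1 was seen together with Tmem176a or Tmem176b in 15 cells without butyrate (1.23%, 0.689 to 2.02) and in 33 with butyrate (3.37%, 2.33 to 4.70). It was seen without them in 97 (7.94%, 6.49 to 9.61) and 78 (7.97%, 6.35 to 9.84). The log2 ratio of shares was 1.46 (0.54 to 2.44) for the cells with Tmem176 and 0.00 (-0.44 to 0.45) for those without. Cells with Tmem176 but no receptor gene numbered 35 and 51, at a log2 ratio of 0.86 (0.21 to 1.53). After thinning, the log2 ratio for receptor gene cells with Tmem176 was 0.91 (-0.23 to 2.09), an interval that held 0. Tmem176 was thus seen in 13.4% (7.69 to 21.1) of receptor gene cells without butyrate and in 29.7% (21.4 to 39.1) with butyrate, which is 1.15 (0.23 to 2.14) on the log2 scale, and whether another pair of libraries would give the same could not be tested.

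**Figure D3:**
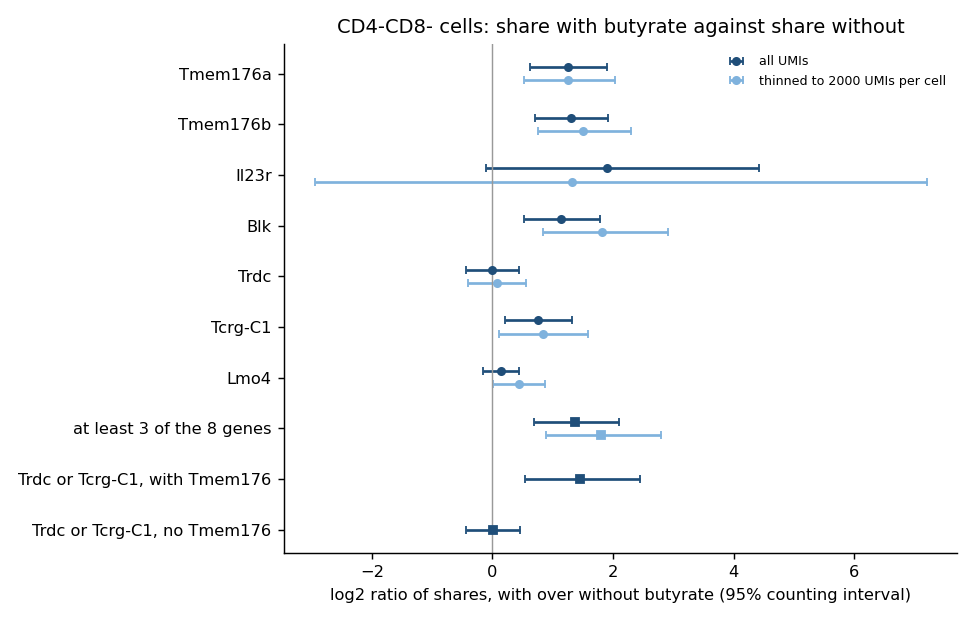
Log2 ratio of the share of CD4-CD8- cells, with over without butyrate (x axis), for 7 of the genes (Il17a had no cell without butyrate) and for 3 groups of cells; dark points use all UMIs, light points cells thinned to 2000 UMIs, and bars are exact 95% intervals for counting error. Receptor gene cells with Tmem176 stood at 1.46 and those without at 0.00.

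The receptor gene cells with and without Tmem176 differed in other genes in both libraries, given here as shares of cells at 2000 UMIs. A gene was counted when the shares differed by at least 20 percentage points the same way in both libraries, which 1.1% of 2806 genes did upward and 0.855% downward. Of the 9 type 17 genes seen often enough, 7 were higher with Tmem176: Rora, Maf, Il18r1, Il7r, Cxcr6, Ramp1 and Icos. Maf, a transcription factor of the IL-17 program, had a UMI in 46.7% and 45.5% of the cells with Tmem176, against 2.06% and 5.13% of those without. Cxcr6, a tissue-homing chemokine receptor, was at 53.3% and 69.7% against 4.12% and 7.69%. Zbtb16, which encodes the innate-like factor PLZF, was too sparse for the count, at 26.7% and 21.2% against 1.03% and 1.28%. Il17f and Il22 had no UMI in either group.

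Some type 1 genes went the other way. Of 6 seen often enough, 3 were lower with Tmem176, namely Nkg7, Ccl5 and Ly6c2, and 0 were higher. Nkg7, a cytotoxic granule gene, was at 6.67% and 9.09% with Tmem176 against 60.8% and 60.3% without. Lmo4 was at 60% and 81.8% against 2.06% and 7.69%, and Blk at 40.0% and 30.3% against 0 of 97 and 0 of 78 cells. Of the receptor genes, Trdc was lower with Tmem176, at 46.7% and 36.4% against 78.4% and 74.4%. Tcrg-C1, whose level is uncertain, was higher, at 60% and 51.5% against 19.6% and 29.5%. The median difference was 31.7 and 40.3 points for the type 17 genes and -21.7 and -32.4 points for the type 1 genes, against 0.00 and 0.583 over all genes. The cells had been picked after their values were seen, by genes chosen from the same cells, so these counts describe the groups and support no name for them.

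**Figure D4:**
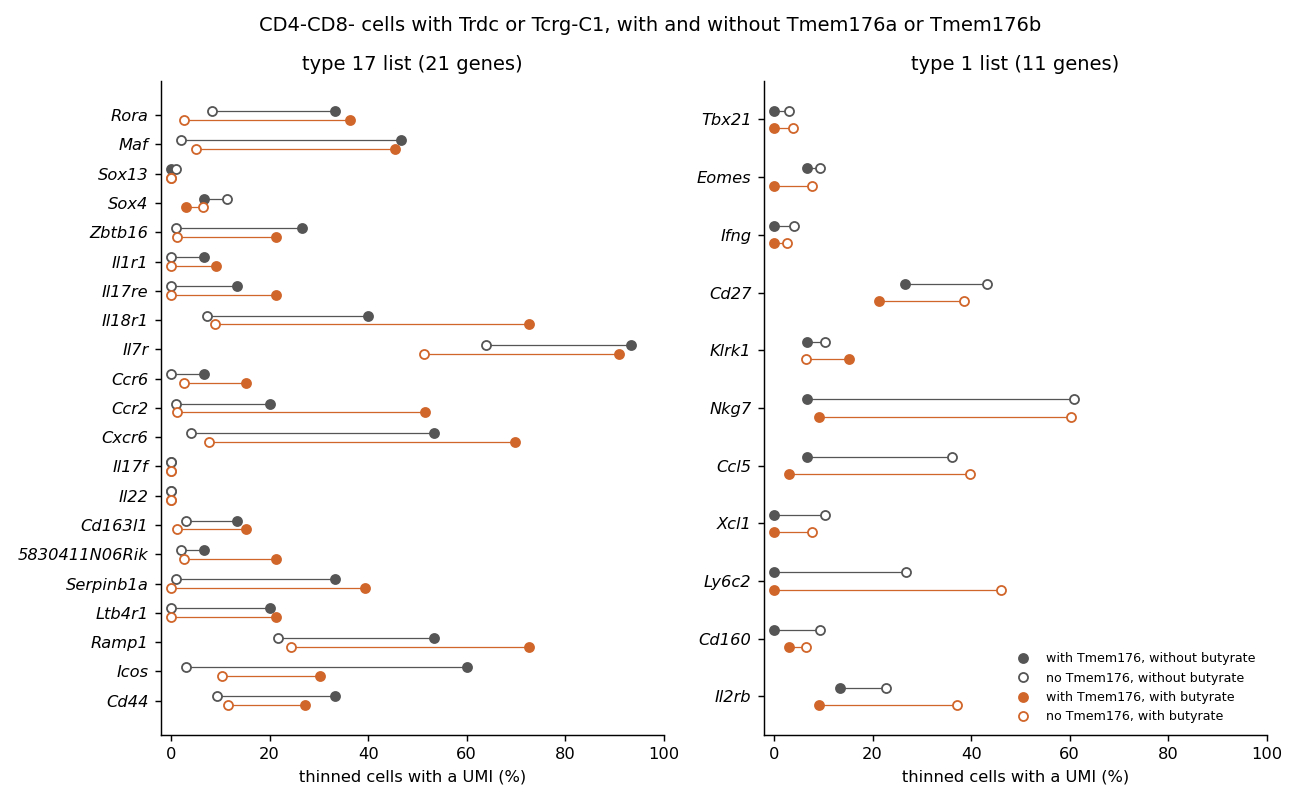
Percent of thinned CD4-CD8- cells with a UMI (x axis) for the genes of the type 17 and type 1 lists (y axis) among cells with Trdc or Tcrg-C1; filled points have Tmem176a or Tmem176b (15 cells without and 33 with butyrate), open points lack both (97 and 78), and grey and orange are without and with butyrate. Maf and Cxcr6 lie to the right with Tmem176, and Nkg7 without it.

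The variable segments were sparse, and the groups set side by side here were chosen by different rules. Counts are without thinning unless stated. Tcrg-V6, the γ segment of a semi-invariant receptor known from type 17 γδ T cells, was seen in 2 of 27 and 3 of 56 CD4-CD8- cells with at least 3 of the 8 genes, and in none of the 97 and 78 receptor gene cells without Tmem176. Trdv4, which encodes the δ segment paired with it, was seen in 1 and 5 cells against 0 and 0. Tcrg-V1 was in 1 and 3 against 14 and 11 cells, and Trdv5 in 0 and 0 against 5 and 7. Tcrg-V4 was in 3 and 5 against 7 and 9 cells, and Trdv2-2 in 1 and 1 against 4 and 6. Trgv2 was in both, at 8 and 18 against 30 and 41 cells. The α chain gene Trac was not absent from receptor gene cells: it had a UMI in 60% and 60.6% of those with Tmem176 and in 38.1% and 56.4% of those without.

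CD4-CD8- cells with at least 3 of the 8 genes were also set against those with none. Of 8493 other genes, 0.341% were at least 20 points higher in both libraries and 0.141% lower. The type 17 list had 7 of 13 higher and 0 lower, the same 7 genes as above in a group that shares cells with the former one, with median differences of 22 and 32.6 points against 0.136 and 0.701 over all genes. Il17re, a chain of the receptor for IL-17C, was at 11.1% and 19.6% against none. The 10 leading genes were S100a6, Id2, Cxcr6, Ramp1, Il18r1, Sptssa, Cmtm7, Icos, Prr13 and Ifngr1. S100a6, a calcium-binding protein of activated cells, was at 59.3% and 69.6% against 5.29% and 3.22%, and Id2, a regulator shared by innate-like lymphocytes, at 66.7% and 67.9% against 13.6% and 9.97%.

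Of the 5 genes of naive αβ T cells, 3 were lower in those cells, Ccr7, Lef1 and S1pr1, and Tcf7 and Dapl1 did not pass. Tcf7, a transcription factor of naive and memory T cells, was at 63.0% and 55.4% against 50.6% and 48.0%. Of 9 tested type 1 genes, 0 were higher and 0 lower. Trac was lower at 29.6% and 41.1% against 63.2% and 62.6%, and Trbc1 and Trbc2 did not pass, Trbc1 being at 55.6% and 41.1% against 48.1% and 52.3%. Of 3 tested γδ receptor genes outside the set, Tcrg-C2 was higher, at 29.6% and 25.0% against 0.230% and 0.307%. Cells with none of the 8 genes lack Trdc and Tcrg-C1 by rule, so the differences in Trac and Tcrg-C2 were partly set by that choice. Among receptor gene cells Tcrg-C2 did not pass, at 46.7% and 39.4% with Tmem176 against 24.7% and 37.2% without. None of the 4 Cd3 genes and none of the 2 tested innate lymphoid genes passed, and Il1rl1, Areg, Rxrg and Kit had no UMI in the cells with at least 3 of the 8 genes. The 2 tested genes were nevertheless higher: Gata3 at 18.5% and 17.9% against 10.6% and 8.59%, and Il2ra at 14.8% and 16.1% against 4.14% and 4.75%. Without thinning, 51.9% and 71.4% of the cells with at least 3 genes had any UMI of the innate lymphoid list (6 genes). In cells with none of the 8 it was 24.3% and 25.5%.

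Markers of other cell types were present in these cells. The summed B cell list (4 genes) was at 512 and 424 CPM in CD4-CD8- cells with at least 3 genes against 317 and 258 CPM in those with none. Any of its UMIs was seen in 44.4% and 32.1% of the former and in 25.4% and 22.3% of the latter. In CD8+ cells, which had more UMIs per cell, it was 29.6% and 33.9%. The dendritic list (9 genes) was at 270 and 186 CPM, from 2 and 3 cells, against 0.661 and 1.33 CPM in those with none, and Xcr1, Clec9a, Cd209a and Siglech were at 0 in both libraries. That is 7.41% and 5.36% of cells with any dendritic UMI against 0.342% and 0.754%. The myeloid list (8 genes) was at 138 and 20.1 CPM against 39.5 and 19.6 CPM, with C1qa, C1qb and Adgre1 at 0. Of the 5 natural killer genes, Ncr1 and Klre1 were at 0. With every cell left out that had a B cell, myeloid or dendritic UMI, the log2 ratio for at least 3 genes over all Cd3e+ cells was 1.42 (0.57 to 2.34) and for receptor gene cells with Tmem176 1.62 (0.36 to 3.02).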

How the data were processed

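MedLN cells of OVA-induced asthma mice were captured with the 10x Genomics 3′ kit, 4 mice pooled per library and 1 library with and 1 without butyrate. Per the labels, the authors used Cell Ranger 6.0.1 and mm10 and deposited UMI counts per gene and cell, which were used without normalization. Following the study methods, cells above 10% mitochondrial UMIs or below 200 genes were removed (186 and 327 cells), followed by predicted doublets, taken as the top 0.8% per 1000 cells by Scrublet score in scanpy 1.11.5 (750 and 638). Classes were set by UMIs of Cd3e, Cd4, Cd8a, the other Cd3 and αβ constant genes, and B cell marker genes. Shares have exact binomial intervals, CPM exact Poisson intervals, and ratios an exact interval conditional on the sum of both counts (scipy 1.17.1). Thinned values come from 1 seeded draw of 2000 UMIs per cell. The code was tested on simulated data. A gene entered the CPM comparison at 50 UMIs over both libraries and the comparison of cell groups at 20 cells. Named are the 8 genes, genes of the marker lists (21 type 17, 11 type 1 γδ, and receptor, Cd3, B cell, myeloid, dendritic, natural killer, innate lymphoid and naive lists) and the 10 genes that led the cells with at least 3 of the 8. The genes, lists and cell groups were chosen with earlier results of these data known. Some list genes are not reported here.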

Additional observations from a re-analysis of the deposited data

Results flagged for a closer look

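Cells that the comparisons did not use also held these genes together. Among Cd3e+ cells removed by the filters, 8 of 463 without butyrate (1.73%, 0.749 to 3.38) and 15 of 399 with butyrate (3.76%, 2.12 to 6.12) had at least 3 of the 8 genes, more than the 3 cells that a count of 0 allows. A B cell marker was seen in 8 of the 8 and 11 of the 15. Among unresolved cells, 22 without and 28 with butyrate had at least 3 of the genes, of which 18 and 25 had a B cell, myeloid or dendritic marker and 8 and 3 had Trdc or Tcrg-C1. The part of other cell types in these counts was not tested.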

How the results depend on the processing

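No paired analysis was possible because each condition was 1 library. Over 165 values recomputed for 35 results, 148 stayed within the interval or within 1.5 times the count of the reported value, 17 moved beyond it, and 0 with an interval on one side of 0 changed direction. The log2 ratio for at least 3 of the 8 genes over all Cd3e+ cells stayed above 0 under all 10 alternatives, from 0.43 (at least 2 genes) to 1.74 at 2000 UMIs per cell. With a pseudocount of 1 CPM, 73 genes were past 2-fold in CD4-CD8- cells against 15 with 10 CPM, which follows from the smaller constant. The ratios of Tmem176a (0.83 to 1.33) and Tmem176b (1.02 to 1.51) kept their intervals above 0 under all 8 alternatives. Receptor gene cells with Tmem176 did so under 7 of 8, the exception being thinning (0.91). The alternatives for these cells were chosen after the data were seen, as were leaving out shared barcodes and leaving out cells with B cell, myeloid or dendritic UMIs. The interval of Tcrg-C1 stayed above 0 under 6 of 8. Blk moved most among the shares, from 0.31 without doublet removal to 1.82 after thinning. The cause of these moves was not tested. Il17a and Il23r were seen in few cells, which allow no ratio or only a wide one. After thinning, Il17a had a UMI in 3 cells without and in 1 with butyrate. Whether greater depth would show more cells with either gene was not tested.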

Other observations

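Outside the lists, and chosen after their values were seen, Actn2 had a UMI in 6 of 15 and 12 of 33 receptor gene cells with Tmem176 against 7 of 97 and 2 of 78 without, and S100a4 in 5 of 15 and 18 of 33 against 1 of 97 and 2 of 78. Ms4a4b went the other way, with 6 of 15 and 8 of 33 cells against 94 of 97 and 75 of 78.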
